A study of Homo sapiens with 6 samples.

Results

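The regions described here are 1104 stretches of acetylated chromatin that lay in no gene and more than 50 kb from any gene start. They were chosen by their presence in the control and SB Kac lists and by their position, among the 70329 peaks of lysine acetylation (Kac) called in untreated cells. A region had to lie on chromosomes 1 to 22 or X, measure less than 10 kb, share at least 1 bp with a Kac peak of benzoate-treated cells, overlap no GENCODE 44 gene of any type, and lie more than 50 kb from the transcription start site (TSS) of every annotated transcript. Of the 70326 control Kac peaks on these chromosomes, 69693 were shorter than 10 kb, 44883 of those shared sequence with a Kac peak after treatment, 10426 of those lay outside all genes, and 1104 of those were beyond 50 kb. They are called far intergenic regions below.

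The study profiled histone marks by ChIP-seq, in which an antibody pulls down chromatin and the bound DNA is sequenced, in cells labelled HepG2, a human liver tumour cell line. There were 6 groups of 1 library each: input, Kac and lysine benzoylation (Kbz), each from control cells and from cells given 10 mM sodium benzoate (SB) for 24 h. Benzoylation is an acyl mark on lysine whose donor, benzoyl-CoA, the cell can make from SB. Peak lists of control Kac, SB Kac and SB Kbz were used. Control Kbz had no peak list here, so Kbz before treatment is not described, and the inputs were not analysed. Both antibodies were pan antibodies, so the lists do not say which histone or lysine was modified. With 1 library per group there was no replicate error and no test between groups. The intervals given below are 95% Wilson intervals for shares and 95% order-statistic intervals for medians, and they cover counting error only. A peak list holds no read totals, so the depth behind each list is unknown. Fold is the authors' linear ratio of read density in a peak over background, and it was compared only as a percentile, the share of peaks of the same list with a lower fold.

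Active enhancers are stretches of DNA, often far from the genes they act on, that transcription factors bind and whose flanking nucleosomes are acetylated. They reach promoters by looping of the chromatin fibre, and the gene they act on is not always the nearest one. Acetylation is also found at promoters of transcripts that an annotation does not list, so distance from a TSS alone does not make a region an enhancer.

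The cell label was first set against promoter peaks of marker genes. Promoter peaks were found at 3 of 8 liver genes in control Kac, at 4 after SB, and at 1 for Kbz. APOA1, TTR and HNF4A had Kac peaks in both lists, AFP had 1 only after SB, and ALB, APOB, FOXA2 and SERPINA1 had none in any list. Of 6 genes of other cell types, the numbers were 3, 4 and 3: MYOD1, COL3A1 and GFAP, of muscle, fibroblasts and glia, were in all 3 lists, PECAM1 of endothelium was in SB Kac alone, and PTPRC and CD3E of blood cells were in none. Defining liver promoters such as those of ALB and APOB were thus without a Kac peak, and what part this has in the results below was not tested.

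The central 300 bases of the strongest, the most benzoylated and the most remote regions show how unlike each other these sequences were. They are from the plus strand of hg38, 5′ to 3′, with each CpG, the dinucleotide that is depleted in most of the human genome, in capitals. The first 4 are among the 5 regions of highest control Kac fold, the next 3 those of highest Kbz fold, then the region farthest from a TSS. The last, between SH3BGRL2 and ELOVL4, was chosen after its values were seen, as an example rich in CpG.
TFAP2C/BMP7, chr20:56988170-56988469: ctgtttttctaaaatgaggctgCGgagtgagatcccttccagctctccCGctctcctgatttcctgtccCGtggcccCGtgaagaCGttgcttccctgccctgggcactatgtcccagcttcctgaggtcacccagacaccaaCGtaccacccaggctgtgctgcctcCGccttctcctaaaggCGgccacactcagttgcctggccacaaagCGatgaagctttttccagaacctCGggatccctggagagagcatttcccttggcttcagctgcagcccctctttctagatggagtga
RASSF10/BMAL1, chr11:13216604-13216903: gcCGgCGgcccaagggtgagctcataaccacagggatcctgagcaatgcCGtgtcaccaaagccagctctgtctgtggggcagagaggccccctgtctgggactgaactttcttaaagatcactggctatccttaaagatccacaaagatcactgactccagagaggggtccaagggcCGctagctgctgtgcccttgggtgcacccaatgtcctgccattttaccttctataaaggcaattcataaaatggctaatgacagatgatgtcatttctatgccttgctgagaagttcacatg
ROBO1/GBE1, chr3:80278218-80278517: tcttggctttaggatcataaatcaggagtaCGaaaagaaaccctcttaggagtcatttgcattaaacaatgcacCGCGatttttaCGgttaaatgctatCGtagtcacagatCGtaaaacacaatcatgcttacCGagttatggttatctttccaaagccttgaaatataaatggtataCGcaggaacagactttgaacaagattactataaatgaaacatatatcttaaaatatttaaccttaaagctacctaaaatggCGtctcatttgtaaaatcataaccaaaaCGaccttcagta
NRP1/PARD3, chr10:33484065-33484364: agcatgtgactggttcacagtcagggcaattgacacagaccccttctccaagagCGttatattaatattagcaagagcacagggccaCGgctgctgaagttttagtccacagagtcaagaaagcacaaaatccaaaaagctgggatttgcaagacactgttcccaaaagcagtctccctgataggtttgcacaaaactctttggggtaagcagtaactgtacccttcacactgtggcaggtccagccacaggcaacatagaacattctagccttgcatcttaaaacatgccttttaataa
HMGB3/GPR50, chrX:151081942-151082241: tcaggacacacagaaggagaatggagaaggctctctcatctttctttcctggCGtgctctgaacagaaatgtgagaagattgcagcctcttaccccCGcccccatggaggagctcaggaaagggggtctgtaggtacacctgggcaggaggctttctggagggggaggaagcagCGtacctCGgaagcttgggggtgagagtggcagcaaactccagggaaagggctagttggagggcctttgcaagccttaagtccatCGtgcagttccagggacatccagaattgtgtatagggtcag
TSC22D1/NUFIP1, chr13:44918294-44918593: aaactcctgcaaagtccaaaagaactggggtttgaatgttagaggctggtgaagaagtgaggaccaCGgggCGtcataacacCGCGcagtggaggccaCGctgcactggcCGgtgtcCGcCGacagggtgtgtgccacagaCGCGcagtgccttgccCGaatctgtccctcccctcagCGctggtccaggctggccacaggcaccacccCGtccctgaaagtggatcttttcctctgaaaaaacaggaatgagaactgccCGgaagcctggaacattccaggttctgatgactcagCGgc
ING2/RWDD4, chr4:183588119-183588418: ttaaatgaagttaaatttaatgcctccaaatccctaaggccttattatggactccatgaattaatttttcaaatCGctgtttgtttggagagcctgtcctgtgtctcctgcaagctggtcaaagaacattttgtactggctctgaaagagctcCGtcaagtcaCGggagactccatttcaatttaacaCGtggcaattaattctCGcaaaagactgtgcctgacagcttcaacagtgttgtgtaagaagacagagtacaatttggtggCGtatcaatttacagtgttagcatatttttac
CELF4/PIK3C3, chr18:40867756-40868055: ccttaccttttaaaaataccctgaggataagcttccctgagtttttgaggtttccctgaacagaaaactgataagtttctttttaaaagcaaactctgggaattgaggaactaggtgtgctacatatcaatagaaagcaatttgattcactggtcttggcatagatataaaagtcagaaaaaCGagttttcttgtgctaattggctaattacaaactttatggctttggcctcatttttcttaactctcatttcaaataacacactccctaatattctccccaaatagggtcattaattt
SH3BGRL2/ELOVL4, chr6:79778057-79778356: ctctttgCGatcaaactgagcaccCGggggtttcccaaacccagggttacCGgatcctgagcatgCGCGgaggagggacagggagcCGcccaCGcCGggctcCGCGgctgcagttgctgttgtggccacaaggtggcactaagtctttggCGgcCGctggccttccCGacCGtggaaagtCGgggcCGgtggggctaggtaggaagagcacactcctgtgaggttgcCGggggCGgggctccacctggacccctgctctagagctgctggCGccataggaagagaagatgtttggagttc

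The CpG counts of these 9 windows ran from 1 to 19, the last in the window chosen as rich in CpG. Among the others the highest count was 15, near NUFIP1. The window between TFAP2C and BMP7, the strongest region, held 10 CpG at a GC content of 57.3%, whereas that between ROBO1 and GBE1 also held 10 at a GC content of 34.0%. The window between CELF4 and PIK3C3 held 1. Searched on both strands for the motif letters given below, the window near NUFIP1 held the HNF4A letters at bases 10 to 17, the ETS letters at bases 260 to 266 and the AP-1 letters at bases 289 to 295. AP-1 letters also stood at bases 143 to 149 of the most remote window. The CpG-rich window near SH3BGRL2 held 2 GC boxes and the NRF1 letters at bases 61 to 68. The windows near TFAP2C, ROBO1 and ING2 held none of the 12 motifs.

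Control Kac and SB Kac chose the regions, so their values there are a description. Control fold ran from 2.01 to 8.02 with a median of 3.31, SB fold from 1.87 to 8.46 with a median of 3.04, and length from 280 to 9868 bp with a median of 1426 bp (1319 to 1496). The median percentile was 59.1 (57.0 to 61.2) in the control list and 53.0 (50.5 to 55.0) in the SB list. A region spanned a single SB peak in 1070 cases and 2 SB peaks in 34, and SB peaks covered a median of 74.0% of its length. Its rank was lower in the SB list than in the control list for 702 of the 1104, or 63.6%, with a median difference of -6.09 percentile points (-7.75 to -4.90). For shared peaks in no gene but 3 to 50 kb from a TSS, the near intergenic peaks, the median difference was -3.68 points (-4.23 to -3.20). It was -1.11 points for genic peaks outside promoters and 1.69 for promoter peaks, those within 3 kb of a TSS.

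**Figure D1:**
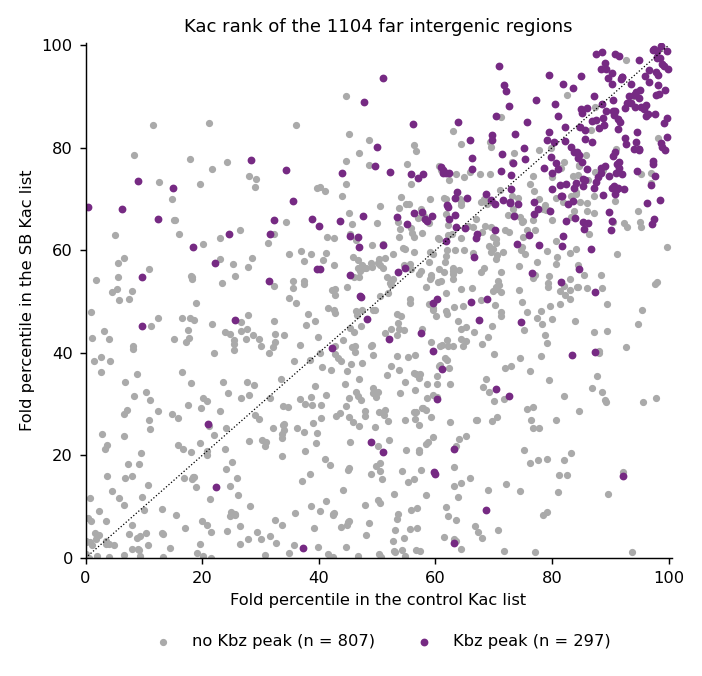
Percentile of fold in the control Kac list (x axis) against that in the SB Kac list (y axis) for each of the 1104 far intergenic regions; purple points are the 297 with a Kbz peak, grey points the 807 without, and the dotted line marks equal rank. More points lie below the line (702) than above it (402), and the purple points crowd into the upper right corner.

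The strongest regions by control fold were also in the SB list with Kac folds of 3.23 to 7.12, and 9 of these 10 overlapped a Kbz peak. In the top decile of control fold, Kbz was on 77.4% of far intergenic, 83.8% of near intergenic, 79.4% of genic and 96.5% of promoter peaks. The highest of the 10 was chr20:56987858-56988781, 924 bp in hg38, with a control fold of 8.02, an SB fold of 5.92 and a Kbz fold of 4.05. It lay 358 kb from TFAP2C, which encodes a transcription factor of the AP-2 family, and 185 kb from BMP7, which encodes a ligand of the TGF-beta superfamily. A further region of the 10, chr20:56955682-56960126, lay in the same interval with folds of 6.68, 5.25 and 5.92 in the same order. Its Kbz percentile was 87.8, against 53.6 for the stronger acetylated neighbour, so the order of the pair was different in the Kac and Kbz lists.

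The region chr11:13215824-13217684, 59.0 kb from the circadian clock gene BMAL1, was the 1 of the 10 with no Kbz peak. Its control fold of 7.12 stood at percentile 99.7, its SB fold of 3.23 at percentile 60.7, and SB Kac covered 50.9% of it. By contrast chr3:80277142-80279594, between the Slit receptor gene ROBO1 and the glycogen branching enzyme gene GBE1, had a fold of 7.06 in control and 7.12 after SB, with a Kbz fold of 4.45.

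A long region, chr10:33481233-33487197, lay 145 kb from NRP1, a coreceptor gene for semaphorins and VEGF, with Kac folds of 6.93 in control and 4.32 after SB and a Kbz fold of 3.29. At chr7:101717421-101720837 and chr7:101742386-101746397, between MYL10 and the homeobox gene CUX1, control folds were 6.59 and 6.52. Their SB folds were 4.13 and 6.07 and their Kbz folds 3.84 and 4.90, so the one nearer CUX1 ranked higher after SB in both marks. The region chr15:95845347-95847106, 479 kb from the orphan nuclear receptor gene NR2F2, had folds of 6.4, 4.54 and 3.13. The last of the 10, chr13:44917186-44919702, 69.8 kb from NUFIP1, had folds of 6.25, 6.17 and 6.56 and was also second by Kbz fold. Lower SB than control percentiles held for each of the 10, and all are among the strongest of their list by choice.

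**Figure D2:**
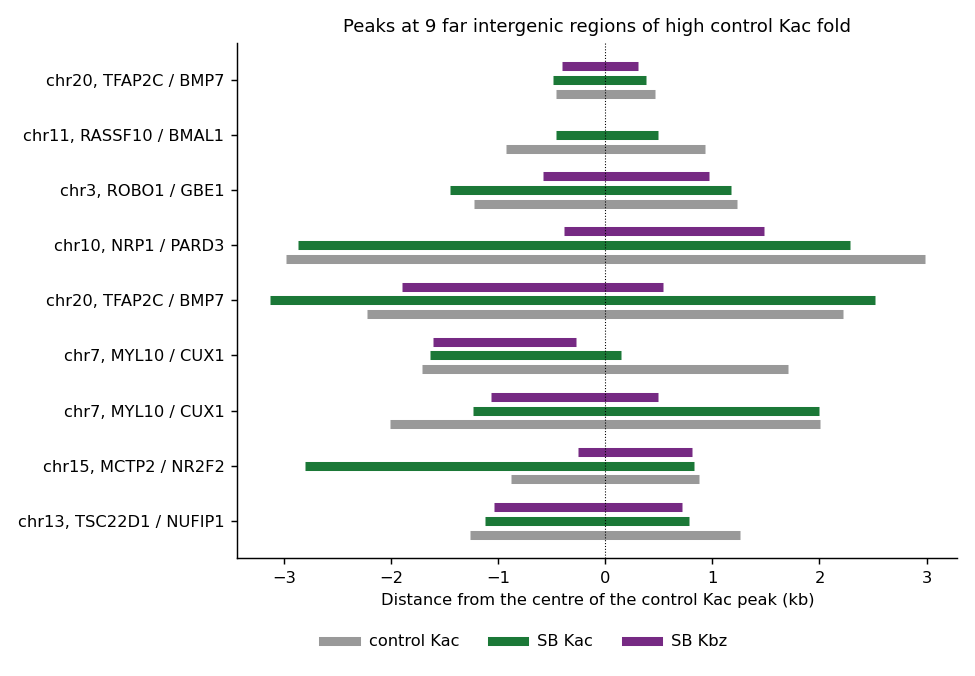
Peaks of control Kac (grey), SB Kac (green) and SB Kbz (purple) at 9 of the 10 far intergenic regions of highest control Kac fold, from the highest at the top; the x axis is the distance in kb from the centre of the control peak and each row names the chromosome and the nearest coding gene on either side. The bars of the 3 lists overlap in 8 rows, the Kbz bar is shorter than the control bar in each of them, and the row at RASSF10 and BMAL1 has no Kbz bar.

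Kbz came from a library that the choice did not use. Over all 69693 control Kac peaks shorter than 10 kb, 64.4% shared sequence with SB Kac, and over the 44883 shared ones 45.5% overlapped a Kbz peak. Of the 1104 far intergenic regions, 297 overlapped a Kbz peak, or 26.9% (24.4 to 29.6). When an overlap had to reach 50% of both peaks, the share was 13.1%, and that of near intergenic peaks 22%. At 1 bp, near intergenic peaks did so in 2658 of 7590 cases, 35.0% (34.0 to 36.1), genic peaks outside promoters in 3229 of 13775, 23.4% (22.7 to 24.2), and promoter peaks in 14230 of 22414, 63.5% (62.9 to 64.1). The far intergenic share was thus below the background and below the near intergenic and promoter shares, and above the genic share, with intervals that overlapped none of the other 3.

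The Kbz peaks on far intergenic regions were weak and short within the Kbz list. Their fold ran from 2.39 to 8.12, and their median percentile was 33.1 (28.6 to 38.2), against 41.1 (39.4 to 42.9) at near intergenic peaks, 34.7 (33.2 to 35.9) at genic peaks and 62.4 (61.6 to 63.1) at promoters. The median Kbz peak measured 675 bp, against 784.5 bp at near intergenic, 723 bp at genic and 1429 bp at promoter peaks. It covered a median of 39.0% of its region. Regions with Kbz were stronger in control Kac than those without, at median percentiles of 81.8 and 52.5, and longer, at medians of 1839 and 1269 bp. The same held in the other classes. Control percentiles were 81.4 and 48.2 at near intergenic, 76.2 and 42.0 at genic and 83.6 and 45.9 at promoter peaks. Kbz was on 118 of the 402 regions that ranked higher after SB and on 179 of the 702 others, 29.4% and 25.5%. The first set had a median SB percentile of 61.2 and the second of 44.5. Their median control percentiles were in the opposite order, 44.01 and 67.95, since the sets were split by the change in rank. What part either rank had in the 2 shares was not tested.

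The regions of highest Kbz fold lay beside genes of varied function. At chrX:151081394-151082789, 93.8 kb from the orphan receptor gene GPR50 and 95.9 kb from HMGB3, which encodes a DNA-bending chromatin protein, Kbz fold was 8.12, SB Kac fold 7.02 and control Kac fold 4.56. Its percentile rose from 88.5 in control Kac to 98.6 in SB Kac and was 98.4 in Kbz. After the region near NUFIP1 came chr4:183587707-183588831, 81.6 kb from ING2, a gene for a reader of methylated histone H3, with a Kbz fold of 6.47 and Kac folds of 5.68 and 7.57 in control and SB. Then chr10:121041691-121046689 between WDR11 and the growth factor receptor gene FGFR2 had a Kbz fold of 6.39. The next, chr18:25503024-25504482 between ZNF521 and SS18, the latter a subunit gene of the SWI/SNF remodeller, had one of 6.34. Each of these 5 stood above percentile 90 of the Kbz list. The median far intergenic region with Kbz stood at 33.1, and the 5 lie above it by choice.

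Kbz presence followed the strength of SB Kac. In the lowest 5 deciles of the SB list by fold, between 2.54% and 9.30% of the far intergenic regions had a Kbz peak. The share was 11.4%, 38.8%, 54.5%, 77.2% and 92.3% in deciles 6 to 10, over 149, 165, 145, 79 and 52 regions. The steepest step lay between decile 6 (7.25 to 17.5) and decile 7 (31.7 to 46.4). Within deciles, the far intergenic share was below the near intergenic one in 9 of 10, below the promoter one in 9 of 10 and below the genic one in 3 of 10. The far and near intervals overlapped in every decile but decile 6, where they were 7.25 to 17.5 and 19.7 to 24.9. Far and promoter intervals were apart only in deciles 6 to 10. Far and genic intervals were apart only in decile 7, where the far share was higher. If near intergenic peaks had the same mix of deciles as far intergenic regions, 31.3% of them would carry Kbz, in place of 35.0%, and promoter peaks 36.3%, in place of 63.5%. For genic peaks the value was 25.2%, close to the 26.9% of the far intergenic regions.

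**Figure D3:**
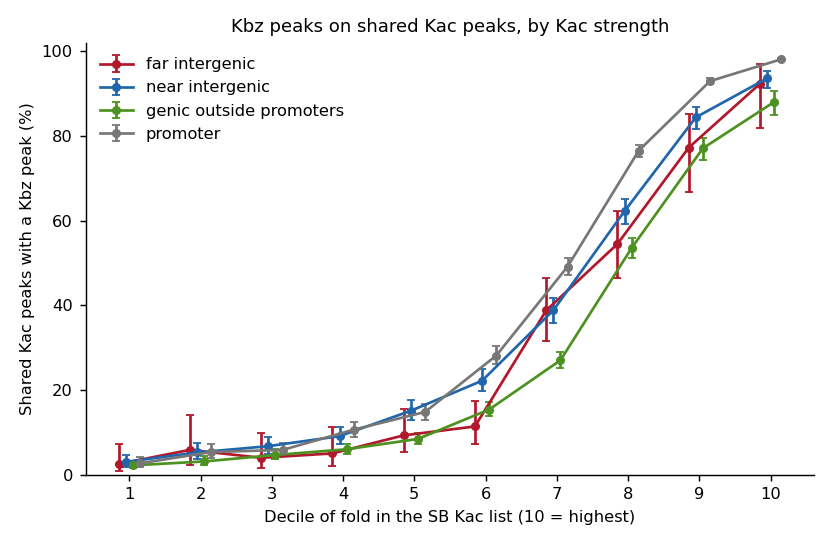
Share of shared Kac peaks with a Kbz peak (y axis, percent) in each decile of the SB Kac list by fold (x axis, 10 is the highest), for far intergenic, near intergenic, genic and promoter peaks; bars are 95% Wilson intervals. In the far intergenic regions the share climbs from 2.54% to 92.3%, with the steepest step between deciles 6 and 7.

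The share of control peaks found again after SB, which the choice of regions used, was also lower far from genes. Of 2440 far intergenic control peaks shorter than 10 kb, 1104 overlapped SB Kac, or 45.2% (43.3 to 47.2), against 54.8% near intergenic, 56.2% genic and 77.5% at promoters. It rose with control fold from 24.3% in the lowest decile to 96.6% in the highest. It was below the near intergenic share in 9 of 10 deciles, with intervals apart in deciles 2, 3, 4 and 8. At the mix of deciles of the far intergenic peaks the near intergenic share would be 53.0%. The 1336 far intergenic control peaks without SB Kac were short, with a median of 688.5 bp, and stood at a median percentile of 30.9. Of them, 13 overlapped a Kbz peak, 0.973% (0.570 to 1.66). The depth of the libraries is unknown, and depth and treatment cannot be told apart here.

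Beyond the limit of 50 kb, distance itself went with little further change. The Kbz share was 36.6%, 35.2% and 32.6% for shared intergenic peaks 3 to 10, 10 to 20 and 20 to 50 kb from a TSS. It was 27.3% (23.7 to 31.3) at 50 to 75 kb, 30.3% (24.9 to 36.4) at 75 to 100 kb, 25.1% (19.7 to 31.5) at 100 to 150 kb, 18.1% (10.9 to 28.5) at 150 to 200 kb and 25.8% (16.6 to 37.9) at 200 to 500 kb, over 523, 244, 203, 72 and 62 regions. The intervals of the 5 far bins overlapped each other. The share of control peaks with SB Kac fell from 57.2% at 3 to 10 kb to 51.4% at 20 to 50 kb and lay between 40.5% and 47.1% in the 5 far bins. Median SB percentiles in the far bins stayed between 50.4 and 57.8.

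**Figure D4:**
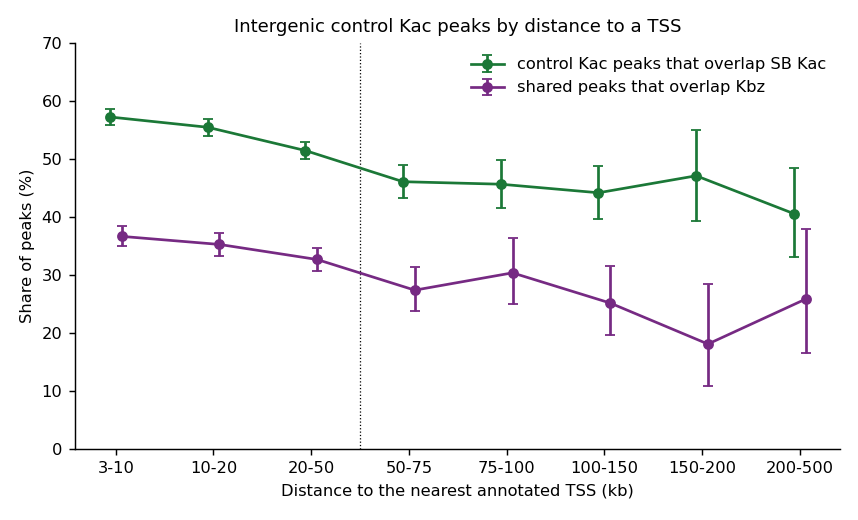
Share of intergenic control Kac peaks that overlap SB Kac (green) and share of those that overlap Kbz (purple), in percent, by distance to the nearest TSS in kb; bars are 95% Wilson intervals and the dotted line marks 50 kb. Both shares step down towards 50 kb, from 57.2% and 36.6% in the first bin, and the intervals of the bins beyond it overlap.

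The far intergenic regions were 50.012 to 471 kb from a TSS, with a median of 76.8 kb. The nearest TSS belonged to a lncRNA in 397 cases, to a processed pseudogene in 295 and to a protein-coding gene in 263. The nearest protein-coding TSS was a median of 154 kb and at most 2308 kb away. The most remote, chr18:40865151-40870661, was 471 kb from any TSS, between CELF4, an RNA-binding protein gene, and the lipid kinase gene PIK3C3, which was 1085 kb away. Its Kac folds were 5.43 in control and 3.54 after SB, its Kbz fold was 2.60, and SB Kac covered 37.3% of it.

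The 4 that followed in distance were 360 to 381 kb from a TSS. On chromosome 1, chr1:104664739-104665598 and chr1:104671422-104672605 lay between AMY1C and PRMT6, a salivary amylase gene and an arginine methyltransferase gene. Both carried Kbz, with folds of 3.20 and 3.95, and had control Kac folds of 4.91 and 5.80 and SB Kac folds of 4.83 and 5.82. On chromosome 6, chr6:95121224-95122825 and chr6:91029316-91029787 had control Kac folds of 3.08 and 2.65 and no Kbz peak.

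The peaks next to the limits of the choice were as follows. Just beyond 50 kb were chr11:76266037-76267069 near WNT11 and chr6:54717876-54720571 near FAM83B, both 50.012 kb from a TSS, with control folds of 3.23 and 4.60 and SB folds of 2.43 and 3.92. Just inside it, and left out, were peaks 49.9 kb from a TSS on chromosomes 6 and 3, with control folds of 3.91 and 2.70 and SB folds of 3.30 and 2.49. The longest region kept measured 9868 bp and had folds of 4.25 and 3.42, and the next, 9730 bp beside the ubiquitin ligase gene PJA1 on chromosome X, 4.08 and 3.96. The shortest left out for length measured 10175 and 10268 bp, with control folds of 4.16 and 3.17 and SB folds of 4.21 and 3.39. In all, 10 far intergenic control peaks were 10 kb or longer, and 10 of these 10 overlapped SB Kac.

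Sequence that lay in no gene and beyond 50 kb of a TSS made up 388 Mb, 13.3% of the known bases of these chromosomes. It held 2.84 far intergenic regions per Mb, against 11.6 shared peaks per Mb in the 654 Mb of near intergenic sequence and 15.4 per Mb of genome. Control Kac peaks covered 0.957% of it, SB Kac 0.568% and Kbz 0.0931%, against 3.68%, 2.66% and 0.573% of near intergenic sequence.

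Chromosomes differed. The highest densities were 5.34 regions per Mb of far sequence on chromosome 15, 4.95 on chromosome 6 and 4.89 on chromosome 10, and the lowest above 0 were 0.994 on chromosome 16 and 1.01 on chromosome 14. Chromosomes 19 and 22, with 3.72 and 4.06 Mb of such sequence, had none. Chromosomes 15 and 10 were also dense in near intergenic peaks, with 18.5 and 15.7 per Mb of near sequence against 11.6 overall. As a ratio to that density, far intergenic regions were most frequent on chromosome 13, at 0.441, chromosome 4, at 0.395, and chromosome 6, at 0.360, against 0.245 overall and 0.289 on chromosome 15. Chromosome 6 had the most regions, 119. The Kbz share was highest on the X, 22 of 46 or 47.8% (34.1 to 61.9), and lowest on chromosome 13, 15 of 85 or 17.6% (11 to 27.1). Of all regions, 10 lay within 100 kb of a run of unknown bases in the assembly and 1 within 10 kb.

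Many of the regions had a neighbour. Joined across gaps of up to 12.487 kb, the widest gap inside a group, they made 823 groups: 640 regions stood alone and 464 were in 183 groups of at least 2. Kbz was as frequent on single regions, 26.7% (23.4 to 30.3), as on grouped ones, 27.2% (23.3 to 31.4). Of the 183 groups, 129 held only 2 regions. Kbz was on every member in 7 of the 183, on some in 89 and on none in 87. Whether this split differs from what a share of 27.2% alone would give was not tested.

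The largest group, chr10:15427478-15489174, held 8 regions in 61.7 kb between FAM171A1 and the integrin gene ITGA8, of which 3 carried Kbz. In order along the chromosome their control Kac folds were 2.63, 4.17, 5.2, 2.62, 2.49, 3.01, 3.63 and 3.18, and their SB Kac folds 2.67, 4.46, 6.35, 3.40, 2.68, 2.74, 3.55 and 3.43. The second, the third and the last carried Kbz, with folds of 5.10, 4.84 and 3.21. The pair that was highest in Kac was therefore also highest in Kbz, whereas the seventh, 8.157 kb long at an SB percentile of 69.5, had no Kbz peak although the last, at 66.5, had one.

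Next in size was chr3:103903420-103928782, with 6 regions that covered 17.8 of 25.4 kb. It lay 1438 kb from the cell adhesion gene ALCAM and 1468 kb from ZPLD1. Control folds there were 3.93, 2.37, 3.22, 3.75, 4.34 and 2.73, and only the fifth, the strongest, carried Kbz, with a fold of 3.49. The group chr3:73294646-73325492, 62.7 kb from the ubiquitin ligase gene PDZRN3, also held 6 regions, with control folds of 2.65, 3.84, 2.66, 2.59, 3.26 and 3.38. Its second and strongest region alone carried Kbz, with a fold of 3.64. In both groups a neighbour that shared 1 SB peak with the Kbz-bearing region, at an SB fold of 3.98 in the first and 4.01 in the second, had none.

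Counted by nearest protein-coding gene, the regions fell to 529 genes, of which 294 had a single region and 48 had at least 5, together 346 regions. MAP3K7, which encodes the signalling kinase TAK1, had 18, at 54.4 to 713 kb, and 4 of them carried Kbz. ALCAM, the homeobox gene HLX and NR2F2 had 14 each, of which 2, 3 and 4 carried Kbz. The median percentile of the HLX regions was 57.8 in control Kac and 30.6 in SB Kac, that of the MAP3K7 regions 60.3 and 40.3, and that of the NR2F2 regions 52.4 and 62.8, so the rank went down at HLX and MAP3K7 and up at NR2F2. BMP7 and SOX9, a transcription factor gene of cartilage and gonad development, had 11 each. Those of SOX9 were 603 to 742 kb from its TSS with Kbz on 3, and those of BMP7 124 to 247 kb with Kbz on 6. SHOX, a homeobox gene of limb growth, had 8 at median percentiles of 90.5 in control and 88.4 in SB Kac, of which 5 carried Kbz. SHOX lies in the pseudoautosomal region that X and Y share, so reads there cannot be told apart by chromosome.

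Of 19962 protein-coding genes, 2.65% were nearest to a region. Of 20 liver transcription factor genes, 3 were nearest to any region: GATA6 to 2, at 109 and 111 kb, NR5A2 to 1 and TBX3 to 1, together 4 regions, of which 2 carried Kbz. That is 0.362% (0.141 to 0.928) of the far intergenic regions, beside 0.553% (0.410 to 0.747) of the near intergenic peaks, with overlapping intervals. Of 20 plasma protein genes of the liver, none was nearest to a region, and 1 near intergenic peak had such a gene as its nearest. Of 15 targets of Wnt signalling, a pathway that shapes liver zones and is often active in liver tumours, 4 were nearest to 5 regions: LEF1 to 2, and APCDD1, AXIN2 and TBX3 to 1 each. Those 5 are 0.453% (0.194 to 1.06) of the far intergenic regions, beside 0.198% (0.120 to 0.326) of the near intergenic peaks, with overlapping intervals. TBX3 is in the liver factor list too, so its 1 region is counted in both. These lists rest on nearness alone, and whether a region acts on the gene was not measured.

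The regions were poor in GC and CpG beside other acetylated peaks and richer than the sequence around them. The median GC content of the central 300 bases was 42.0% (41.3 to 43.0), against 38.7% (38.3 to 39.3) in 1909 windows 10 kb to either side that touched no Kac peak, 48.7% in near intergenic, 46.3% in genic and 55.7% in promoter peaks. The median ratio of observed to expected CpG was 0.205, against 0.160 in the flanking windows, 0.239 near intergenic, 0.218 genic and 0.416 at promoters. Windows above 50% GC with a CpG ratio above 0.6, called CpG-rich here, numbered 22 of 1104, or 1.99% (1.32 to 3.0), against 0.576% of flanking windows, 4.49% near intergenic and 32.1% at promoters.

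Kbz went with GC content inside the far intergenic class. From the lowest to the highest of 4 GC ranges the share with Kbz was 18.6% (14.6 to 23.5), 25.1% (20.2 to 30.7), 26.3% (21.5 to 31.7) and 38.5% (32.8 to 44.5), while the median SB Kac percentile was 52.8, 51.9, 52.6 and 55.3. Near intergenic peaks in the same ranges of GC had shares of 25.7%, 28.4%, 31.3% and 40.8%. At the GC mix of the far intergenic regions the near intergenic share would be 31.4%. At their mix of GC and SB deciles together it would be 29.0%, the promoter share 32.0% and the genic share 23.8%. The far intergenic share measured was 26.9% (24.4 to 29.6), and the weighted shares have no interval of their own. What part GC and SB fold had in the differences between classes was not tested.

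The gradient with GC was seen in weak and middling regions. In the lowest 5 deciles of SB fold the share with Kbz went from 1.45% (0.398 to 5.13) in the lowest GC range to 12.0% (7.26 to 19.1) in the highest, and in deciles 6 to 8 from 25.9% (19.3 to 33.9) to 46.3% (36.6 to 56.3). In deciles 9 and 10 it was 81.8% and 83%, over 22 and 53 regions. Of the 22 CpG-rich regions 17 carried Kbz, 77.3% (56.6 to 89.9), against 25.9% of the others, at median SB percentiles of 77.7 and 52.6. GC content moved with these shares, and its part in them was not tested.

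**Figure D5:**
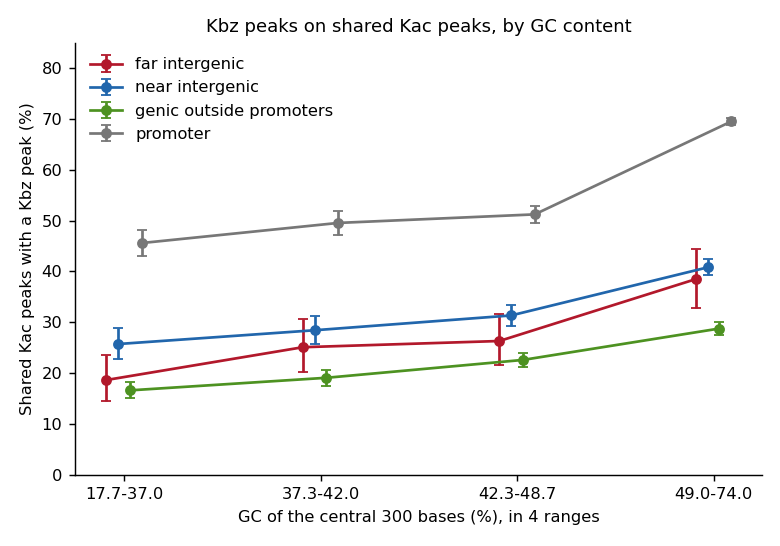
Share of shared Kac peaks with a Kbz peak (y axis, percent) by GC content of the central 300 bases, in 4 GC ranges that hold near-equal numbers of far intergenic regions (x axis, percent), for far intergenic, near intergenic, genic and promoter peaks; bars are 95% Wilson intervals. The far intergenic share goes from 18.6% to 38.5%, and its intervals overlap those of near intergenic peaks in each range.

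Motif letters of 12 factor families were counted in the same windows on both strands. AP-1 letters (TGANTCA), bound by FOS and JUN proteins, were in 15.6% (13.6 to 17.8) of the far intergenic regions and in 9.53% (8.30 to 10.9) of the flanking windows, beside 13.3% of near intergenic, 13.6% of genic and 8.12% of promoter peaks. The letters searched for CTCF, the insulator protein (AGGGGGC), were in 4.44% against 1.99% in flanks, and the GC box of SP and KLF factors (GGGCGG), which can overlap other GC-rich letters, in 5.25% against 2.51%. Both were more frequent in near intergenic peaks, 7.21% and 11.2%, and in promoter peaks, 11.6% and 31.4%. ETS letters (CCGGAAG) were in 1.36% against 0.367% in flanks, over 15 and 7 windows, GATA letters (AGATAAG) in 5.80% against 4.40%, and NRF1 letters (GCATGCGC) in 0.815% against 0.314%, over 9 and 6 windows. The flanking windows had a lower median GC content, 38.7% against 42.0%, and its part in these shares was not tested.

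The letters of FOXA, HNF1, HNF4A and C/EBP, factors of the liver among other tissues, were not above the flanks in windows of 300 bases. FOXA letters (TGTTTAC or TGTTTGC) were in 9.87% against 10.3% in flanks, HNF1 letters (TTAATNATT) in 3.08% against 3.25%, HNF4A letters (CAAAGTCC or CAAAGGTC) in 1.90% against 2.1%, and C/EBP letters (TTGCNNAA) in 15.9% against 17.9%. In windows of 1000 bases the FOXA and HNF4A letters were above the flanks, at ratios of 1.10 and 1.02. TCF/LEF letters (ATCAAAG) were in 4.62% against 5.76%, and the CCAAT box (ATTGGCT) in 3.44% against 3.77%. Near intergenic peaks held FOXA letters in 8.43%, HNF1 letters in 1.5%, HNF4A letters in 1.91%, C/EBP letters in 13.2% and GATA letters in 5.06%. HNF1 letters were less frequent there (1.25 to 1.80) than in the far intergenic regions (2.21 to 4.27). For FOXA, HNF4A, C/EBP and GATA letters the intervals of the 2 classes overlapped. Median GC content was 42.0% in the far intergenic regions, against 38.7% in the flanks and 48.7% in near intergenic windows. The part of GC content in these shares was not tested. Letters in a window are a description of the sequence and say nothing of binding.

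Among the regions, those with AP-1 letters carried Kbz in 32 of 172 cases, 18.6% (13.5 to 25.1), and those without in 28.4% (25.6 to 31.4). The first had a higher median control Kac percentile, 63.2 against 58.4, and a lower median SB Kac percentile, 47.7 against 53.8. Regions with a GC box carried Kbz in 32 of 58 cases, 55.2% (42.5 to 67.3), against 25.3% without, at median percentiles of 66.7 in control Kac and 66.4 in SB Kac. Regions with FOXA letters carried Kbz in 21 of 109 cases, 19.3% (13.0 to 27.7). Regions with CCAAT letters did so in 3 of 38, 7.89% (2.72 to 20.8), and those with HNF4A letters in 9 of 21, 42.9% (24.5 to 63.5). The median SB Kac percentile was 46.8 with FOXA, 49.1 with CCAAT and 60.9 with HNF4A letters. For the other families the share with Kbz was 20.4% for CTCF, 20.3% for GATA, 19.6% for TCF/LEF, 26.5% for HNF1 and 27.4% for C/EBP letters, at median SB Kac percentiles of 44.5, 49.8, 54.2, 51.7 and 52.2. ETS letters had Kbz in 5 of 15 regions and NRF1 letters in 7 of 9, at median SB Kac percentiles of 58.7 and 64.3. Many of these intervals were wide. They were 11.5 to 33.6 for CTCF, 12.3 to 31.7 for GATA and 14.6 to 43.1 for HNF1 letters, which overlapped each other. For ETS and NRF1 letters they were 15.2 to 58.3 and 45.3 to 93.7. A region can also hold letters of several families. Whether the Kbz shares depart from what the SB Kac percentiles alone would give was not tested.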

How the data were processed

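HepG2 chromatin was digested with micrococcal nuclease and immunoprecipitated with pan antibodies against Kac or Kbz. Per the paper's methods and the labels, the authors sequenced single reads of 50 bp, aligned them to hg38, removed duplicates and called broad peaks at a stated FDR of 0.01. Their processing notes name Bowtie2 2.2.6, SAMtools 0.1.19 and MACS2 2.1.1. The authors' deposited lists give per peak a fold (a linear ratio over background), the −log10 p and −log10 q, each averaged over the peak, and an integer display score. Fold ranked peaks within a list, −log10 q served as a threshold in alternatives, and −log10 p and the score were not used. Peaks were called per library. All 3 lists reach down to a −log10 q of 1.31, below the 2 that the stated FDR equals, and 78 regions had a control −log10 q below 2.

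Each group held 1 library, with depth unknown, so no test was made. Classes were assigned from all 62062 genes and 251784 transcripts of GENCODE 44. Overlap was 1 bp or more, the overlapping peak of highest fold gave the fold of a region in another list, and promoters were within 3 kb of a TSS. CpG and motifs were read from the central 300 bases of a peak in the hg38 reference. The share of repeats was not computed, since that reference carries no masking. Where a class is given at the mix of another, its shares per decile or GC range were weighted by the other's numbers.

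The regions and the lists of genes, motifs and markers were chosen with earlier results of these data known. The text names the 10 regions of highest control fold, the 5 of highest Kbz fold, the 5 farthest from a TSS, the 3 largest groups and 2 peaks on each side of the 50 kb and 10 kb limits. Of the first of these sets 1 region, and of the markers 1 gene, is not reported here. Genes nearest to many regions were named after their numbers were seen. The overlap code was checked with short queries placed at the ends of control Kac peaks. Of those that shared a base with a peak 1000 of 1000 were called, and of those just beyond one 0 of 1000. In 6 overlap counts, 0 differed from bedtools 2.31.1. Python 3.11.15, numpy 2.4.6, pandas 2.3.3, scipy 1.17.1, pysam 0.24.0, matplotlib 3.10.9 and samtools 1.23.1 were used.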

Additional observations from a re-analysis of the deposited data

How the results depend on the processing

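No paired analysis was possible because every group consists of 1 library, and for the same reason no library could be left out in turn. In 9 of 9 alternatives the far intergenic shares with Kbz and with SB Kac stayed below the near intergenic ones, and of 63 values 30 stayed within the counting interval, or for the number of regions within 1.5 times. With −log10 q of at least 5 there were 217 regions, with Kbz on 30.9%, against 51.0% of near intergenic peaks. With −log10 q of at least 2 the near intergenic shares were 38.7% with Kbz and 53.7% with SB Kac, and the median control percentile of the regions was 55.5. With an overlap of 50% of both peaks there were 650 regions at a median control percentile of 63.1. The Kbz shares were then 13.1% far and 22% near, and the SB Kac shares 26.6% and 31.7%. With a TSS distance over 20 kb there were 3332 regions, 30.7% with Kbz, at a median GC of 45.0%, and the SB Kac shares were 49.2% far and 56.4% near. Over 100 kb there were 337 regions, 23.7% with Kbz, at a median GC of 39.7%, and the near SB Kac share was 53.9%. With protein-coding genes only there were 5991 regions at a median control percentile of 62.0 and a median GC of 44.7%. The Kbz shares were then 31.6% far and 39.4% near, and the SB Kac shares 50.03% and 59.8%. With 1 peak per group the Kbz shares were 30.0% far and 40.9% near, the SB Kac shares 48.5% and 58.9%, and the median control percentile 63.0. Other gene models and limits change which peaks count as far, and for the other settings the cause was not tested. Merging peaks within 1 kb could change none of these values, since the smallest gap in each list was 1121 bp. It is still counted among the 9 alternatives, and its 7 values among the 30. In windows of 1000 bases the motif ratios over flanks turned above 1 for FOXA (1.10) and HNF4A (1.02), and 10 of 12 kept their side. Unknown depth limits every share of peaks found again, above all for weak peaks.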

Other observations

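Peaks of the other lists also lay far from genes. Of 63282 SB Kac peaks, 1565 were in no gene and beyond 50 kb of a TSS, 2.47%, and 1145 of these overlapped a control Kac peak. Of 24308 Kbz peaks, 452 were so placed, 1.86%, and 303 of these touched a far intergenic region described above. A Kac peak of either list was missing under 97 of the 452, 21.5%, against 261 of 3619 near intergenic Kbz peaks, 7.21%.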
